A study of Mus musculus with 6 samples.

Results

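Txnip, the other alpha-arrestins and the sugar-sensing transcription factors that act on them were followed in mast cells isolated from mouse lymph nodes. The set holds 8 of the 17890 genes in the deposited table, taken by symbol: the alpha-arrestins Txnip, Arrdc1, Arrdc2, Arrdc3 and Arrdc4, and the factors Mlx, Mlxip and Mlxipl. All 8 listed symbols were found. The set was put together with the difference between the groups already known, so for these 8 genes that difference is given as a description with its standard error. Their calls in the fit over all genes are counted as part of that description, no p is given for them, and they support nothing.

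The metastatic group (mLN) holds 3 libraries of mast cells from nodes to which a tumour had spread, and the uninvolved group (uLN) holds 3 libraries of mast cells from nodes free of it. The labels give the tissue and node type of every library, and no treatment or genotype. The labels name neither the mouse strain and age nor the tumour, and do not describe how the mast cells were isolated. Nor do the labels say that libraries of a group came from separate animals, so the tests speak only to variation among libraries, which could be technical.

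Alpha-arrestins are adaptor proteins with an arrestin fold and PPxY motifs that recruit ubiquitin ligases of the NEDD4 family to membrane proteins. Txnip, the thioredoxin-interacting protein, is the best studied of them: it binds thioredoxin, limits glucose uptake by promoting the removal of glucose transporters from the cell surface, and is degraded after phosphorylation by AMPK. Its transcription and that of Arrdc4 are known, from other cell types, to be driven by MondoA (encoded by Mlxip) or ChREBP (encoded by Mlxipl). Both are sensors of glucose 6-phosphate that bind DNA as partners of Mlx, at paired E-box-like sites called carbohydrate response elements.

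The promoter windows of Txnip, Arrdc4 and Mlxip are printed because these 3 members had the higher level in mLN. Each runs from 250 bases before to 50 bases after the annotated start, 5′ to 3′ on the gene's own strand, from RefSeq on GRCm38.p6. Capitals mark matches, on either strand, to paired sites (CACGNG, then any 5 bases, then CACGNG again), the E-box CACGTG and the box CCAAT.
Txnip, chr3:96557707-96558006, plus strand: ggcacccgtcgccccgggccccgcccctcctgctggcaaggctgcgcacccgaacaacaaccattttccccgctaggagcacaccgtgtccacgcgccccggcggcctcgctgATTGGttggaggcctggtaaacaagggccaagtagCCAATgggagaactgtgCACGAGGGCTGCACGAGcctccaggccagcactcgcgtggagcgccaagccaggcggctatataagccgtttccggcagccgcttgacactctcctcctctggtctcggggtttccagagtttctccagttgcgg
Arrdc4, chr7:68749189-68749488, minus strand: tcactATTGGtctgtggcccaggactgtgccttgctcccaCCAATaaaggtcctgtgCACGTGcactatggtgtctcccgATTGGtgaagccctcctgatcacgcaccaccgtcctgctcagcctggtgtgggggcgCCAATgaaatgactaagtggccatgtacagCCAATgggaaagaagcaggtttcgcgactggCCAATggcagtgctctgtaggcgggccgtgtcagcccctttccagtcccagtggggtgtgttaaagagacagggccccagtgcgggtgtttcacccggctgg
Mlxip, chr5:123394548-123394847, plus strand: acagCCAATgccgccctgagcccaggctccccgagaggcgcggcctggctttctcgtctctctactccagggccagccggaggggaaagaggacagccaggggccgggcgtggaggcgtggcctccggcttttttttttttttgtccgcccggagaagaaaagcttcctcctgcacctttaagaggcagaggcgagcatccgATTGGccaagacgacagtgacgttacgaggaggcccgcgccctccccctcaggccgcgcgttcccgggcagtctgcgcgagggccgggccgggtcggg

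The Txnip window holds 1 match to the paired sites, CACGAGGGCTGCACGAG, which begins 85 bases before the start site at position 96557872 of chromosome 3. A CCAAT box precedes it, beginning 102 bases before the start. The paired form occurs in 16 of 32851 promoter windows of this length, or 0.0487%, and its letters were chosen with the known element of Txnip in mind, so the match is a description. Arrdc4 holds 1 E-box, beginning 193 bases before its start, and 6 CCAAT boxes. The E-box occurs in 7.15% of the windows and the CCAAT box in 37.4%. Mlxip holds 2 CCAAT boxes and neither of the other forms within its window. That window begins at 123394548, inside the gene's span from 123394521, so the sequence before the span was not searched.

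**Figure D1:**
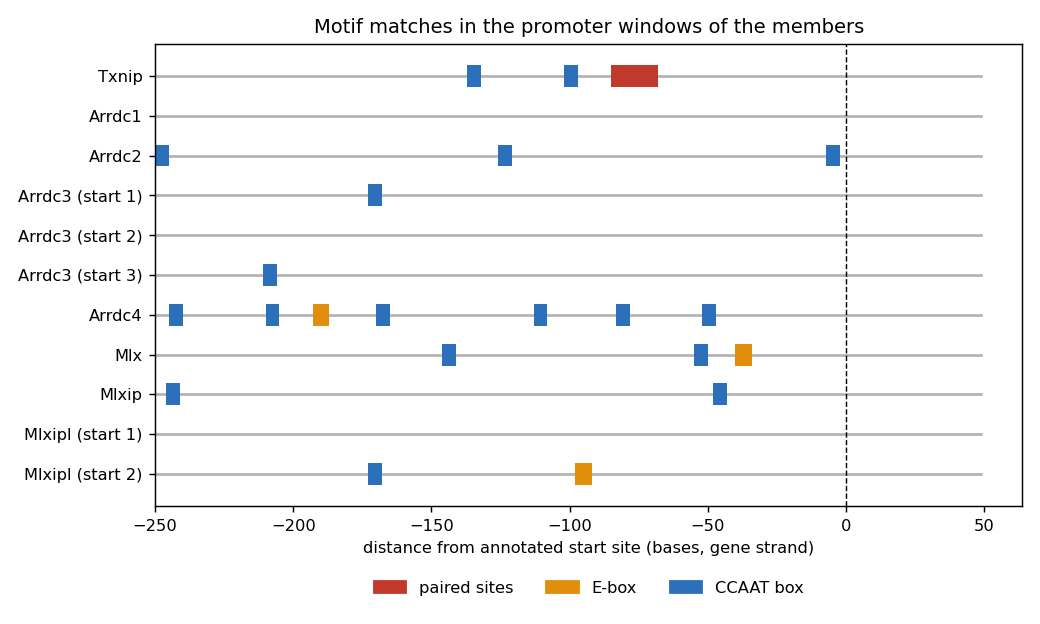
Motif matches in the promoter windows of the 8 members, drawn by distance from the annotated start site in bases on the gene strand; genes with several annotated starts have a row for each. The paired sites appear in the Txnip window alone among the members, an E-box in those of Arrdc4, Mlx and Mlxipl, and Arrdc4 has 6 CCAAT boxes.

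Among the other members, Mlx holds an E-box beginning 40 bases before its start, and an upstream start of Mlxipl holds one beginning 98 bases before it. The start used for Mlx, like that for Mlxip, lies inside the gene's span. CCAAT boxes were found in 7 of the 8 members, Arrdc1 being the exception. Of the tested genes with the paired form, 5 of 9 were higher in mLN and 2 lower, with a median log2 fold change of 0.16, and Txnip is one of them. The E-box was found for 1172 tested genes, of which 396 were higher and 440 lower (median -0.02). The median over all 10180 tested genes with a promoter window was -0.01. Among all 12706 tested genes 33.2% were called higher and 34.2% lower, and the counts for these motifs were not tested against those shares.

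The libraries held 17643916 to 17799420 estimated counts each. Levels are given as CPM, the count scaled to library size, with TMM factors. The 9 mast cell markers, among them Kit, Cpa3 and Fcer1a, summed to 35106 to 37753 CPM in mLN and 36949 to 38642 CPM in uLN, which matches the labelled cell type. Of these 9 markers 3 were called higher in mLN (Cma1, Mcpt4 and Tpsb2) and 5 lower (Kit, Fcer1a, Ms4a2, Cpa3 and Hdc). Kit averaged 3139 CPM in mLN and 7756 CPM in uLN, and Cma1 9607 CPM in mLN and 4783 CPM in uLN. The similar sums thus hold large changes in both directions. Markers of other cells were much lower. Keratinocyte markers summed to 15.1 to 156 CPM in mLN and 5.86 to 14.9 CPM in uLN, and fibroblast markers to 12.5 to 112 CPM in mLN and 3.73 to 13.1 CPM in uLN, both highest in mLN replicate 1. The tested genes of these lists, 3 in each, were called higher in edgeR, and 5 in each in DESeq2. Without mLN replicate 1, edgeR called 1 in each. Without uLN replicate 3, edgeR called 0 of 4 in each, with 3 keratinocyte and 4 fibroblast markers at an unadjusted p under 0.05. Macrophage markers summed to 155 to 175 CPM in mLN and 66.9 to 85.6 CPM in uLN. Of 6 tested macrophage genes 2 (Cd68 and Adgre1) were higher and 4 lower, and the number lower was 2 in DESeq2 and when mLN replicate 1, mLN replicate 2, uLN replicate 2 or uLN replicate 3 was left out. The neutrophil list stood at 15.8 to 17.9 CPM in mLN and 18.0 to 22.9 CPM in uLN, and the 3 lymphocyte markers in the table at 0.644 to 0.682 CPM in mLN and 0.338 to 0.729 CPM in uLN. Of 2 tested neutrophil genes edgeR called 1 lower, and 0 when mLN replicate 1, mLN replicate 2, uLN replicate 1 or uLN replicate 2 was left out (0 to 1 at an unadjusted p under 0.05), while DESeq2 called 0 (1 at an unadjusted p under 0.05). The endothelial list reached 588 to 635 CPM in mLN and 581 to 604 CPM in uLN, nearly all of it Pecam1, which mast cells are also known to express. None of these markers was at 0 in every library, and their part in the values below was not tested. Fewer cells of a type and less RNA per cell cannot be told apart in such libraries.

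Of the 7 members that passed the filter on low counts, 3 were higher in mLN and 3 lower at an adjusted p under 0.05. That is 6 of 7, where 67.4% of all 12706 tested genes were called in edgeR's quasi-likelihood test, 33.2% higher and 34.2% lower. The libraries of the groups did not overlap for the same 6 members, against 72.9% of all tested genes. Since the set was chosen on this difference, nothing is read from these shares. The members differed widely in size and direction, and their median log2 fold change was -0.13.

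Txnip had 129438, 141522 and 180194 reads in mLN replicates 1, 2 and 3, against 33456, 32608 and 33437 in uLN replicates 1, 2 and 3. In CPM these were 7090, 7869 and 10345 in mLN, against 1918, 1840 and 1921 in uLN. Each mLN library lay far above each uLN library, and mLN replicate 3 stood above the other mLN libraries. The mean was 8434 ± 1700 CPM in mLN and 1893 ± 45.7 CPM in uLN (SD, n = 3 each), a log2 fold change of 2.16 ± 0.11 (SE), or 4.46-fold higher. Among all tested genes, 2.33% had a larger log2 fold change. In GRCm38 the gene (ID 56338) occupies positions 96557957 to 96561857 of chromosome 3.

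**Figure D2:**
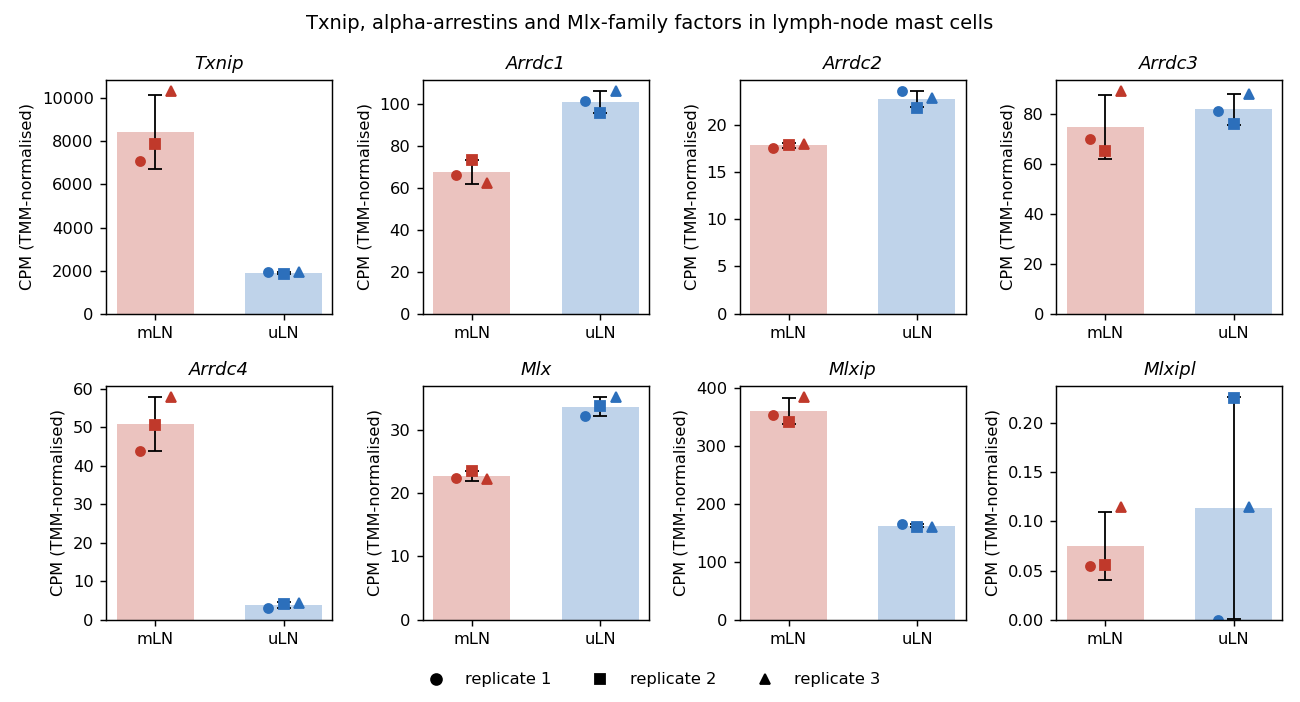
TMM-normalised CPM of each of the 8 members, with a panel per gene and its own axis from 0; bars are means of 3 libraries, whiskers the SD, and symbols the replicates. Txnip, Arrdc4 and Mlxip are higher in every mLN library than in any uLN library, Arrdc1, Arrdc2 and Mlx are lower, and Arrdc3 overlaps.

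Txnip was among the most abundant transcripts of these cells for its length. It took 0.727% to 1.02% of all counts in mLN and 0.184% to 0.189% in uLN. Per kilobase of exon its level was 2984 ± 601 CPM in mLN and 670 ± 16.1 CPM in uLN (SD, n = 3 each), which placed it at rank 5 in mLN and rank 43 in uLN among 17322 genes of known exon length. Of the counts on the 5 alpha-arrestins of the set, Txnip held 97.3% to 97.9% in mLN and 89.7% to 90.3% in uLN. An antisense gene, Gm15441, spans Txnip on the opposite strand and has no row in the deposited counts. No source used here says whether reads were counted by strand, so reads of the 2 genes may not be told apart.

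The spread of Txnip differed between the groups. Its coefficient of variation was 20.2% in mLN and 2.41% in uLN, and 85.8% of tested genes varied less than Txnip in mLN but only 22.7% did in uLN. Replicate 3 of mLN held 1.38 times the mean of mLN replicates 1 and 2, and that ratio was lower for 97.2% of tested genes, whose median was 0.991. Arrdc3 (1.32) and Arrdc4 (1.23) had high ratios as well, while Arrdc1 (0.889) and Mlx (0.966) were below 1. Keratinocyte and fibroblast markers peaked in mLN replicate 1, where Txnip was the lowest of the mLN libraries. The macrophage markers summed to 159, 155 and 175 CPM in mLN replicates 1, 2 and 3, highest in replicate 3. Within that sum Adgre1 stood at 55.48, 57.21 and 70.73 CPM in these libraries, and Cd68 was nearly level at 91.58, 86.96 and 92.15 CPM. Cd163 was lowest in mLN replicate 3, while Csf1r, C1qb and Mrc1, all at low levels, were highest there. The part of these markers in the order of the Txnip values was not tested. Without mLN replicate 3 the log2 fold change of Txnip was 1.99, and without mLN replicate 1 it was 2.27.

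Arrdc4, which is a close relative of Txnip and also restrains glucose uptake in other cells, had the larger fold difference at a far lower level. It had 799, 910 and 1007 reads in mLN replicates 1, 2 and 3, against 53, 74 and 78 in uLN replicates 1, 2 and 3. Every mLN library was far above every uLN library. The mean was 50.7 ± 7.03 CPM in mLN and 3.90 ± 0.760 CPM in uLN (SD, n = 3 each). The log2 fold change was 3.70 ± 0.14 (SE), or 12.98-fold higher, and 0.354% of tested genes had a larger one. Arrdc4 (ID 66412) occupies positions 68736994 to 68749238 of chromosome 7.

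Txnip and Arrdc4 kept no fixed proportion. Per kilobase, Txnip stood at 231, 222 and 256 times the level of Arrdc4 in mLN replicates 1, 2 and 3, against 902, 630 and 612 times in uLN replicates 1, 2 and 3. The ratio was thus lower in every mLN library than in any uLN library, and its uLN spread rests on few Arrdc4 reads.

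The other alpha-arrestins did not share this increase. Arrdc1, which with NEDD4-family ligases forms vesicles that bud from the plasma membrane, had 66.3, 73.5 and 62.2 CPM in mLN, against 101, 95.7 and 106 CPM in uLN. Its groups did not overlap, and its log2 fold change was -0.58 ± 0.07 (SE). Arrdc2, a less studied relative, had 17.6, 17.9 and 18.0 CPM in mLN, against 23.6, 21.8 and 22.9 CPM in uLN, with a log2 fold change of -0.35 ± 0.07 (SE). It too was lower in each mLN library, although the difference was a modest one, and 45.1% of tested genes changed by less.

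Arrdc3, which regulates the beta-2 adrenergic receptor and other membrane cargo, had 70.0, 65.2 and 89.4 CPM in mLN, against 81.4, 76.1 and 88.3 CPM in uLN. The groups overlapped, since mLN replicate 3 lay above every uLN library and the other mLN libraries below them all. Its log2 fold change was -0.13 ± 0.11 (SE). Without mLN replicate 3 the value was -0.27, the only one of the alternatives tried in which Arrdc3 was called. Another gene of the family, Arrdc5, was not in the set and had 1 read over all 6 libraries.

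**Figure D3:**
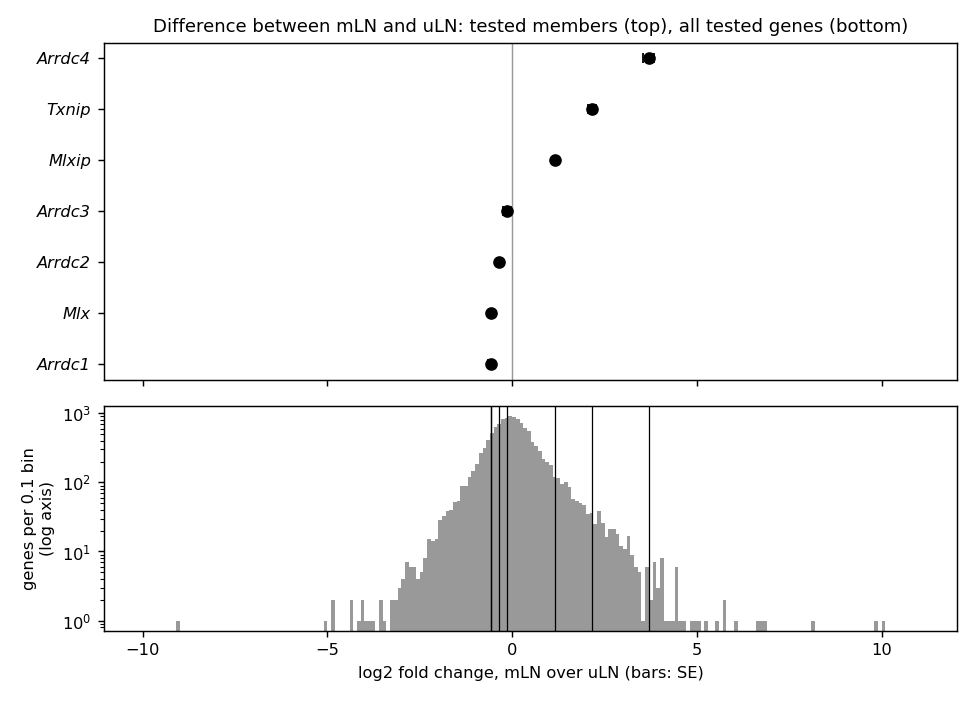
Log2 fold change of mLN over uLN with its SE for the 7 tested members (top), and the distribution over all 12706 tested genes with the members as lines (bottom; the count axis is logarithmic). Arrdc4 (3.70), Txnip (2.16) and Mlxip (1.15) lie in the upper tail, while Arrdc1, Mlx, Arrdc2 and Arrdc3 lie near the bulk of the genes.

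Of the factors, Mlxip was higher in mLN and its partner Mlx lower. Mlxip, which encodes MondoA, had 355, 343 and 385 CPM in mLN, against 166, 161 and 161 CPM in uLN. Every mLN library lay well above every uLN library. The mean was 361 ± 22.0 CPM in mLN and 162 ± 2.78 CPM in uLN (SD, n = 3 each), a log2 fold change of 1.15 ± 0.05 (SE), or 2.22-fold higher. Of all tested genes, 7.89% had a larger log2 fold change. Mlxip (ID 208104) occupies positions 123394521 to 123457932 of chromosome 5. Its counts were not whole numbers in any of the 6 libraries, and those of Txnip in 4 and of Mlx in 2 libraries were not whole either. How the counting gave fractions is not stated in the sources used here.

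Mlx, the obligate DNA-binding partner of both MondoA and ChREBP, had 22.3, 23.5 and 22.2 CPM in mLN, against 32.1, 33.7 and 35.1 CPM in uLN. The groups did not overlap, and the log2 fold change was -0.57 ± 0.07 (SE), a 1.48-fold lower level. Mlx overlaps the gene Psmc3ip, which had 1 to 11 reads per library. Per kilobase, Mlxip stood at 3.91, 3.58 and 4.28 times the level of Mlx in mLN replicates 1, 2 and 3, against 1.27, 1.18 and 1.13 times in uLN replicates 1, 2 and 3. Transcripts of the sensor thus exceeded those of its partner clearly in mLN and slightly in uLN.

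Mlxipl, which encodes ChREBP, the form that dominates in liver and fat, was barely detected. It had 1, 1 and 2 reads in mLN replicates 1, 2 and 3, against 0, 4 and 2 in uLN replicates 1, 2 and 3. Taking 3 reads in a library as the floor (0.169 to 0.170 CPM), a single uLN library exceeded it. The filter removed the gene, and no fold is given. At this depth a difference was not detectable.

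Set in order by level per kilobase of exon, the members took different places in the groups. In mLN the order was Txnip, Mlxip (44.7 ± 2.72 CPM per kilobase), Arrdc1 (40.4 ± 3.44), Arrdc3 (18.0 ± 3.09), Arrdc4 (12.6 ± 1.74), Mlx (11.4 ± 0.370), Arrdc2 (7.57 ± 0.0976) and Mlxipl (0.0207 ± 0.00951), each a mean and SD over 3 libraries. Mlxip and Arrdc1 overlapped there, as did Arrdc4 and Mlx. In uLN it was Txnip, Arrdc1 (60.6 ± 3.10 CPM per kilobase), Mlxip (20.1 ± 0.344), Arrdc3 (19.7 ± 1.48), Mlx (16.9 ± 0.754), Arrdc2 (9.66 ± 0.367), Arrdc4 (0.965 ± 0.188) and Mlxipl (0.0313 ± 0.0312), and here the libraries of Mlxip and Arrdc3 overlapped. Arrdc4 thus stood above Arrdc2 and beside Mlx in mLN, while in uLN it was the lowest member but Mlxipl. These levels rest on all annotated exons, and which isoforms the cells used was not measured.

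**Figure D4:**
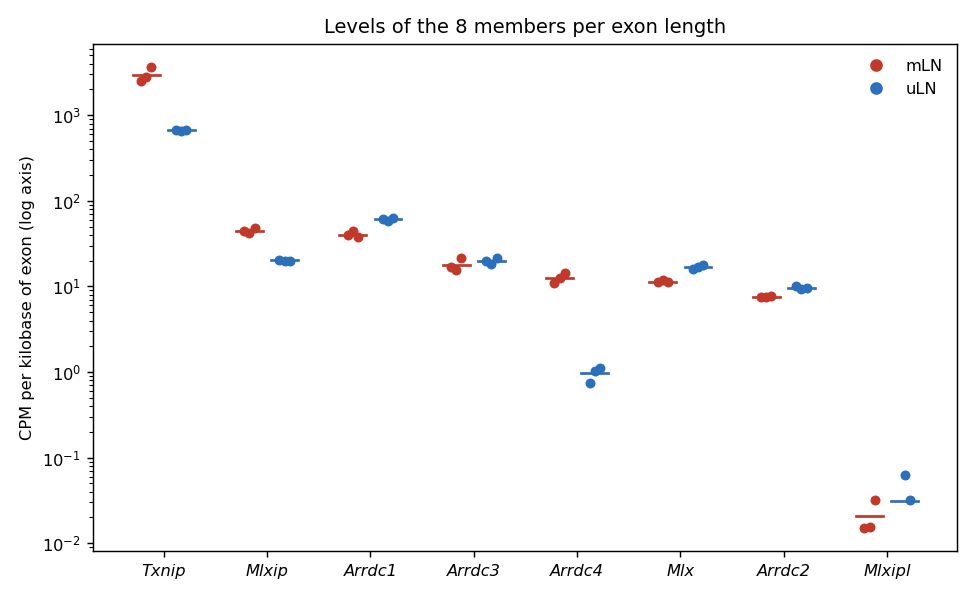
CPM per kilobase of exon, on a log axis, for the 8 members in each mLN and uLN library, with lines at the group means and genes ordered by their mean in mLN; the uLN library with 0 Mlxipl reads cannot be drawn on this axis. Txnip lies at 2984 in mLN and 670 in uLN, above every other member, and Arrdc4 shows the widest gap between the groups.

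The nearest tested genes on either side of each member were looked at, and those of Txnip, Arrdc4 and Mlxip are given in full. Those of Arrdc2 (Il12rb1 at -1.05 and Ccdc124 at -0.34 on the log2 scale) were called lower in mLN, as Arrdc2 was. Those of Arrdc3 (Fam172a at -0.43 and Lysmd3 at -0.48) were called lower too. Beside Arrdc1, Mlx and Mlxipl, a gene each was called higher (Ehmt1 at 0.16, Coasy at 0.25 and Vps37d at 1.71). The gene on their other side was not called. The nearest tested gene after Txnip, Polr3gl, starts 16015 bases beyond it and had 103 ± 3.34 CPM in mLN and 96.1 ± 1.38 CPM in uLN (SD, n = 3 each; adjusted p = 0.0684 in edgeR). The nearest before it, BC107364, ends 103596 bases away and stood at 0.520 CPM in mLN and 0.780 CPM in uLN (adjusted p = 0.234). Both neighbours of Mlxip were lower in mLN. Bcl7a, 20438 bases before it, had a log2 fold change of -0.56 (adjusted p = 5.11e-05), and B3gnt4, 50529 bases after it, one of -1.84 (adjusted p = 0.00606) at the low levels of 0.234 CPM in mLN and 0.804 CPM in uLN. Without uLN replicate 3 the filter removed B3gnt4. The tested genes on either side of Arrdc4 were far away. Fam169b, at 373905 bases, had a log2 fold change of 0.23 and was not called (adjusted p = 0.116), and Mctp2, at 3328589 bases, was higher in mLN, with 11.2 ± 0.859 CPM in mLN and 4.10 ± 0.843 CPM in uLN (SD, n = 3 each) and a log2 fold change of 1.44 (adjusted p = 1.68e-05).

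Genes whose profile was most like that of Txnip were sought among 9702 genes averaging 5 CPM or more. Predicted models (named Gm and a number, or ending in Rik), pseudogenes and genes without reads in any of the libraries were left out. Likeness was the root mean square difference of log2 CPM over the 6 libraries after centring each gene. The 5 nearest were Vash1 (0.0772), Map3k8 (0.0929), Fam234b (0.108), Atp2b4 (0.111) and Ier5 (0.120 on the same log2 scale), where the median gene stood at 1.10. Vash1, which encodes the tubulin-detyrosinating enzyme vasohibin, had 40.0, 41.3 and 53.2 CPM in mLN, against 9.12, 9.50 and 10.5 CPM in uLN. Like Txnip, it was highest in mLN replicate 3, which follows from its choice by likeness over these same libraries. Mlxip, at 0.509, took place 451 and Arrdc4, at 0.810, place 1521. The likeness is carried mainly by the group difference, which many genes share.

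The thioredoxin system, to which Txnip binds, had calls in both directions, at shares near those of all genes. Of its 15 tested genes 5 rose, 6 fell and 4 were not called, where 33.2% of all tested genes were higher and 34.2% lower, and the median log2 fold change was 0.04, against -0.01 over all tested genes. The counts of every list that follows stand against these same shares, and none of them was tested as a list. This list and those that follow were chosen with earlier results of these data known. Genes named from them were taken in the order of adjusted p, so their p values are descriptions only. Prdx4, the peroxiredoxin of the endoplasmic reticulum, rose to 24.8 ± 1.88 CPM in mLN, against 8.79 ± 0.235 CPM in uLN (SD, n = 3 each; adjusted p = 1.65e-07 in edgeR). Prdx5, a mitochondrial and peroxisomal peroxiredoxin, rose 1.72-fold. Srxn1, which repairs over-oxidised peroxiredoxins, fell to 83.2 ± 11.1 CPM in mLN, against 217 ± 14.7 CPM in uLN (SD, n = 3 each; adjusted p = 4.03e-07). The cytosolic peroxiredoxin Prdx1 fell 1.53-fold.

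Txn1, the cytosolic thioredoxin that Txnip binds, was chosen for this comparison after its values were seen. It had 46.8, 46.8 and 44.9 CPM in mLN, against 40.5, 44.1 and 42.9 CPM in uLN, and was not called (adjusted p = 0.0857 in edgeR). Per kilobase, Txnip stood at 56.3, 62.6 and 85.7 times the level of Txn1 in mLN replicates 1, 2 and 3, against 17.6, 15.5 and 16.6 times in uLN replicates 1, 2 and 3. The transcript ratio was higher in every mLN library, most so in mLN replicate 3. With Txn1 nearly level, this ratio mainly restates the Txnip difference. Txn2, another thioredoxin of the list, was called lower, at 34.9 ± 2.21 CPM in mLN, against 54.9 ± 2.97 CPM in uLN (SD, n = 3 each; adjusted p = 1.04e-05 in edgeR).

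Genes known from liver or other tissues as targets of ChREBP or MondoA, other than the members, were also described. Of 14 tested, 7 rose, 4 fell and 3 were not called, and the median log2 fold change was 0.36, beside the 67.4% called among all genes. Klf10, a zinc-finger repressor induced by TGF-beta and by glucose in liver, had 400, 439 and 626 CPM in mLN, against 32.4, 30.9 and 29.8 CPM in uLN (adjusted p = 1.92e-08). It peaked in mLN replicate 3, as Txnip did, and 39.3% of all tested genes were highest in that mLN library. Scd1, which makes monounsaturated fatty acids, had nearly level values of 47.5, 46.9 and 48.1 CPM in mLN, against 3.82, 5.13 and 3.73 CPM in uLN (adjusted p = 3.42e-09). Acaca, which makes malonyl-CoA for fatty acid synthesis, reached 67.3 ± 0.839 CPM in mLN and 26.3 ± 1.60 CPM in uLN (SD, n = 3 each; adjusted p = 3.36e-08). Me1, the cytosolic malic enzyme that supplies NADPH, fell to 11.5 ± 0.788 CPM in mLN, against 26.4 ± 1.85 CPM in uLN (SD, n = 3 each; adjusted p = 7.37e-07). The liver-enriched genes Pklr, Thrsp, Gpd1, Fgf21 and Gckr were too low to test, and Fasn, Khk and Pnpla3 were not called.

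**Figure D5:**
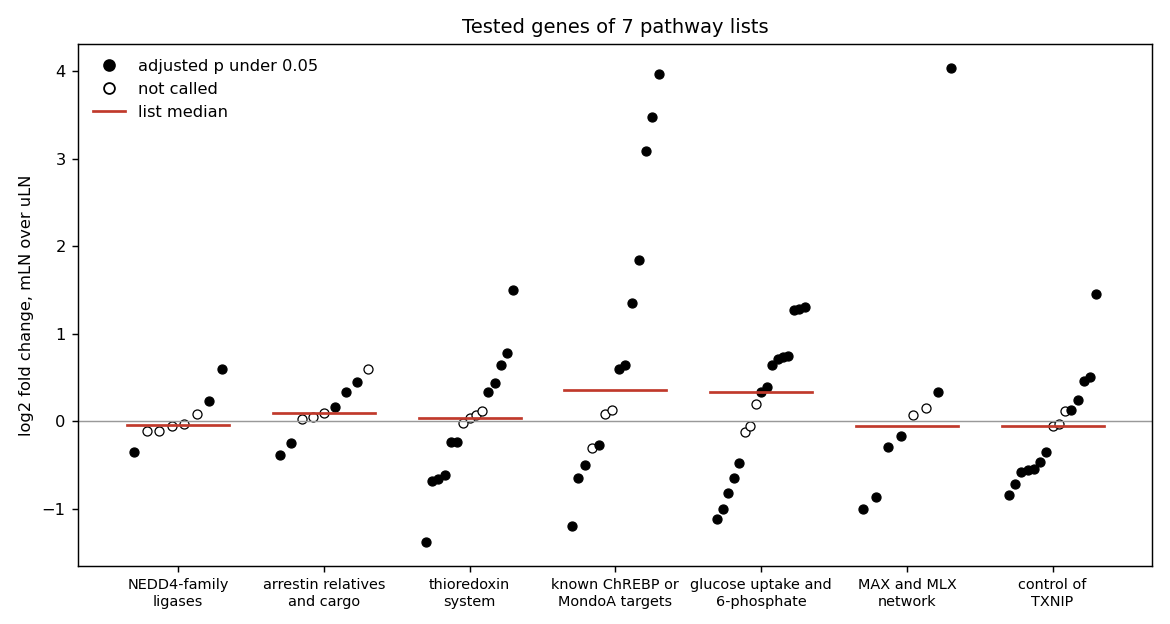
Log2 fold change of mLN over uLN for each tested gene of 7 lists of related genes, with called genes filled, uncalled genes open, and a line at each list's median. The list of known ChREBP or MondoA targets spreads from Me1 at -1.20 to Klf10 at 3.97, and the NEDD4-family ligases from Wwp2 at -0.35 to Wwp1 at 0.59.

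Genes for glucose uptake and for the making or use of glucose 6-phosphate, the ligand sensed by MondoA, were described as a further list. Of 17 tested, 9 rose, 5 fell and 3 were not called, where 33.2% of all tested genes were higher and 34.2% lower. The median log2 fold change was 0.33, against -0.01 over all tested genes, and the split was not tested. Slc2a3, the high-affinity glucose transporter GLUT3, rose to 427 ± 35.3 CPM in mLN, against 176 ± 4.78 CPM in uLN (SD, n = 3 each; adjusted p = 5.52e-08 in edgeR). Gpi1, which turns glucose 6-phosphate into fructose 6-phosphate, rose 2.47-fold, and Pfkfb3, which makes the activator of phosphofructokinase, rose 2.41-fold. G6pdx, the entry enzyme of the pentose phosphate pathway, fell 2.01-fold to 137 ± 9.46 CPM in mLN, against 276 ± 4.28 CPM in uLN (SD, n = 3 each; adjusted p = 1.19e-07). The 10 untested genes included the transporters Slc2a2, Slc2a4 and Slc2a5.

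In the MAX and MLX network of E-box factors, 2 of 8 tested genes rose, 4 fell and 2 were not called. Mxd4, a repressor that pairs with MAX or MLX, fell to 65.5 ± 4.25 CPM in mLN, against 119 ± 1.70 CPM in uLN (SD, n = 3 each; adjusted p = 3.50e-07 in edgeR). Myc fell to 5.14 ± 0.291 CPM in mLN, against 10.3 ± 0.222 CPM in uLN (SD, n = 3 each), while Mycn rose to 8.54, 9.56 and 11.4 CPM in mLN, against 0.631, 0.903 and 0.230 CPM in uLN (adjusted p = 9.64e-07), where its reads were few. Max, the common partner of this family, fell by 0.30 on the log2 scale. The median log2 fold change of the list was -0.05.

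The NEDD4-family ligases, which alpha-arrestins recruit through PPxY motifs, were looked at next. Of 8 tested, 2 rose, 1 fell and 5 were not called, where 67.4% of all tested genes were called, and the median log2 fold change was -0.05. Wwp1 rose 1.51-fold to 66.9 ± 2.85 CPM in mLN, against 44.3 ± 1.51 CPM in uLN (SD, n = 3 each; adjusted p = 5.31e-06 in edgeR). Itch, a ligase that marks Txnip for degradation, rose 1.17-fold (adjusted p = 0.00418), and Wwp2 fell 1.28-fold (adjusted p = 3.34e-05). Smurf1 had a log2 fold change of -0.11 and was not called (adjusted p = 0.0730). It was called lower with no expression filter and without uLN replicate 3, which makes 2 that fell.

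Among the beta-arrestins, arrestin-fold relatives and reported cargo or vesicle partners, 3 of 9 tested genes rose, 2 fell and 4 were not called, and the median log2 fold change was 0.10. Arrb2, beta-arrestin 2, rose 1.26-fold (adjusted p = 4.12e-05 in edgeR), and the iron transporter Slc11a2, a reported Arrdc1 and Arrdc4 cargo, rose 1.37-fold (adjusted p = 0.000385). Vps4a, an ATPase of membrane scission, fell 1.30-fold (adjusted p = 0.000132), and the retromer subunit Vps26a fell 1.19-fold (adjusted p = 0.00178). Each of these changes was smaller than that of Txnip, Arrdc4 or Mlxip.

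Among kinases, factors and partners that act on or with TXNIP, 5 of 15 tested genes rose, 7 fell and 3 were not called, and the median log2 fold change was -0.05. Subunits of AMPK, the energy-sensing kinase, moved apart. Prkab2 rose to 35.5 ± 4.78 CPM in mLN, against 12.96 ± 0.276 CPM in uLN (SD, n = 3 each; adjusted p = 6.46e-07 in edgeR). The other beta subunit, Prkab1, fell to 201 ± 3.25 CPM in mLN, against 297 ± 3.41 CPM in uLN (SD, n = 3 each; adjusted p = 8.09e-07), and the gamma subunit Prkag1 fell 1.79-fold (adjusted p = 2.48e-07). Ddit4, an inhibitor of mTORC1 signalling that can bind Txnip, rose 1.38-fold (adjusted p = 7.71e-06).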

How the data were processed

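RNA from 3 mLN and 3 uLN mast cell libraries was measured with a BGI DNBSEQ mRNA kit, per the labels' protocols. The submitters' processing notes name TopHat, cutadapt and FastQC, with GRCm38 and no versions. The counting tool and strand setting are not given in sources used here. Estimated counts per gene, unscaled, were deposited by the authors, and 32.2% to 32.8% per library were not whole. They were rounded for the tests. The table has 1 row without a gene, which was left out, and 26 symbols turned into dates were restored by gene ID.

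All 17890 genes went into edgeR 4.0.16 (R 4.3.3) with TMM scaling, the default expression filter (12706 genes kept) and the quasi-likelihood test, with Benjamini-Hochberg adjustment and calls under 0.05. The fit was tested on simulated data in which few genes differed, in equal numbers up and down. Here 67.4% of tested genes were called, so that test does not show how the fit or scaling behaves on these data. The SE of a log2 fold change is its size over the square root of F. Exon lengths are unions of GENCODE M21 basic exons. The read floor covers counting error only. Alternatives were other scalings, no filter, DESeq2 1.42.0, a replicate block and leaving out each library.

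The members and lists were chosen with earlier results of these data known. The text names all 8 members, and of each list up to 4 tested genes in the order of adjusted p, or the 2 most abundant where fewer than 2 pass. Promoters were found for 8 of 8 members.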

Additional observations from a re-analysis of the deposited data

How the results depend on the processing

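The log2 fold changes of the 7 tested members moved by less than the spread between replicates under all 11 alternatives (77 of 77 values). With 3 libraries per group, leaving a library out can hardly move a value by more than that spread. For those alternatives the count therefore says little. Arrdc3 went from -0.13 to -0.27 without mLN replicate 3, where it was called, and still lay within the spread. Under the alternatives the values ran from 1.99 to 2.27 for Txnip and from 3.54 to 3.80 for Arrdc4. They ran from 1.11 to 1.18 for Mlxip, and from -0.27 to -0.04 for Arrdc3. Over all genes, the counts went from 3843 to 4403 higher and from 4017 to 4492 lower when a library was left out. Scaling moved the median of all genes by little, to 0.01 at most. Each scaling places the typical gene near 0, so this could not show a change shared by most genes. Of 198 counts, 196 stayed within 1.5 times their value. The exceptions were the NEDD4-family ligases called lower, 2 with no expression filter and 1 to 2 when a library was left out (2 without uLN replicate 3), in both cases by the addition of Smurf1 at -0.14 and -0.15. Whether replicate numbers pair the libraries is not stated in the sources used here. Deviations from the group means correlated at 0.036, -0.133 and 0.009 between libraries of the same number. With 3 libraries per group these low values cannot exclude pairing. With a replicate block 4122 genes were higher and 4263 lower. Mlxipl and the uLN level of Arrdc4 are limited by depth.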
